A study of Mus musculus with 16 samples.

Results

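The following 10 genes of the chondroitin sulfate proteoglycan pathway were described across the cell clusters and time points of a mouse spinal cord injury series: *Ncan*, *Bcan*, *Acan*, *Vcan*, *Cspg4*, *Cspg5*, *Ptprz1*, *Tnr*, *Csgalnact1* and *Chst11*. They were chosen by name, as 8 genes of core or partner proteins and 2 genes of enzymes of the chondroitin sulfate chain, and all 10 were among the 55487 genes of the count matrix. Chondroitin sulfate proteoglycans are core proteins that carry long sulfated sugar chains. In the adult central nervous system they form perineuronal nets and much of the matrix between cells, and after spinal cord injury they accumulate in the scar, where their chains limit axon growth. The secreted lecticans bind hyaluronan at one end and tenascin-R at the other, a smaller group of proteoglycans spans the cell membrane, and enzymes of the Golgi start, extend and sulfate the chains.

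Single cells were sequenced from spinal cord tissue around the lesion core after a C5 dorsal column lesion, a cut through ascending sensory and part of the descending tracts, in mice aged 8 to 10 weeks. The controls (WT) were labelled Ryk+/+,GFAPcreERT2 and the conditional knockouts (cKO) Rykfl/fl,GFAPcreERT2, where Ryk is a receptor for Wnt proteins. Both genotypes carried the Cre recombinase driven by the human GFAP promoter, which is active mainly in astrocytes, and by the study's methods tamoxifen, the drug that activates it, was given daily around the time of surgery. Each genotype was sampled uninjured (Sham in the labels, uninjured in the paper) and at 3 times after the lesion, 1 d, 7 d or 14 d, which gave 8 conditions of 2 mice each. The comparisons asked how the genes differed after injury, between genotypes after injury, and whether the difference after injury depended on the genotype.

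The deposited table held 18203 cells in 17 clusters, counted as unique molecular identifiers (UMIs, 1 per captured transcript). WT 1 d replicate 2 held 1 cell with 266 UMIs and dropped out of every level and fit, so WT at 1 d was a single mouse. The 4 mice of replicate 1 at 1 d and 7 d, in both genotypes, stood apart as shallow: they held 1025 to 1786 cells with 536263 to 1236573 UMIs in all and a median of 414 to 548 UMIs per cell. The other 11 mice held 208 to 1845 cells, 774242 to 9008729 UMIs and a median of 1040.5 to 3637 UMIs per cell. Cells of different mice also shared barcodes. Between the 4 shallow mice 341 matches of a barcode were found, 315 of them in the same cluster, against 54 matches in all other pairs of mice, 10 of them in the same cluster. A barcode of another mouse was carried by 358 of the 5237 cells of the shallow mice. In 6 mice, all of them replicate 2, the condition written in the cell names differed from that in the sample titles; the titles, which the deposited cell table matched in all 16 mice, were used. The titles also hold an animal number, which was below 10000 in 6 mice, the 4 shallow mice and both uninjured mice of replicate 1, and higher in the others; all 4 mice at 14 d have higher numbers.

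Levels are given as CPM, the UMIs of a gene per 1000000 UMIs of a cluster in 1 mouse, as mean ± SD over the mice with at least 10 cells of that cluster. They describe which cells held the transcripts, with no test, and they are compared between clusters for 1 gene at a time, never between genes. The tests were made in 4 classes named by the deposited annotation: Cluster 5 astrocytes (1758 cells, 14 mice with enough cells), Cluster 7 astrocytes (1012 cells, 15 mice), oligodendrocyte precursor cells (OPC, 637 cells, 14 mice) and fibroblasts (267 cells, 9 mice). The depth of a class in 1 mouse ran from 14013 to 480970 UMIs in Cluster 5, from 27728 to 995562 in Cluster 7, from 18106 to 396287 in OPC and from 5446 to 994874 in fibroblasts, so in the shallowest fibroblast sample 1 UMI equalled 184 CPM.

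The annotation was compared with marker lists. Cluster 5 had 4 of 6 astrocyte markers among its 10 leading genes and an astrocyte marker sum of 14976 ± 2461 CPM (n = 14 mice), against 10115 ± 6342 CPM for the 5 oligodendrocyte markers. Cluster 7 had none of the listed markers among its 10 leading genes, and its astrocyte marker sum was 10623 ± 1198 CPM (n = 15) against 1880 ± 656 CPM for the 5 oligodendrocyte markers and 148 ± 65.0 CPM for the 5 neuron markers. Cluster 2 is annotated as astrocytes as well, but its leading genes included the neurofilament genes *Nefh*, *Nefl* and *Nefm*, and its 5 oligodendrocyte markers summed to 17089 ± 8475 CPM against 7586 ± 2149 CPM for the astrocyte markers (n = 11). It is therefore called Cluster 2 and was not used as an astrocyte class. The OPC cluster was led by *Tnr* itself and had 1 OPC marker, *C1ql1*, among its 10 leading genes. Its 5 OPC markers summed to 2797 ± 826 CPM and its oligodendrocyte markers to 6516 ± 3678 CPM (n = 14). The oligodendrocyte sum was thus the larger one here, as in Cluster 2, and OPC is kept as the name of the deposited annotation. Fibroblasts had 3 of 5 fibroblast markers among the 10 leading genes, but the marker sum ran from 1681 to 31724 CPM over the 9 mice. UMIs of a gene in a cluster can also come from RNA released by other cells; its part was not tested.

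*Ryk*, the deleted gene, was read in each mouse with at least 10 cells of a cluster. In Cluster 5 its level was 75.9 ± 31.6 CPM in WT (n = 7) and 77.8 ± 43.8 CPM in cKO (n = 7), and in Cluster 7 it was 152 ± 39.4 CPM in WT (n = 7, 123 to 239) and 117 ± 55.4 CPM in cKO (n = 8, 36.1 to 192). The genotypes overlapped in both clusters. In Cluster 5 1 cKO mouse, 1 d replicate 1, had 0 *Ryk* UMIs, which allow up to 214 CPM. The sources do not say which exons are deleted, and counts from the end of the transcript do not show whether an exon is missing, so these levels do not check the genotype labels.

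Among the lecticans, *Ncan*, which encodes neurocan, lies on the minus strand of chromosome 8 from 70093085 to 70120873 (GRCm38, as are all positions given). It was highest in Cluster 5 at 118 ± 37.4 CPM (n = 14), followed by OPC at 98.6 ± 36.6 (n = 14) and Cluster 7 at 98.2 ± 38.9 (n = 15), and these neighbours did not differ beyond their spread. Cluster 2 followed at 54.9 ± 29.4 CPM (n = 11), below Cluster 7 by more than the larger SD. Neurons had 19.6 ± 9.16 CPM (n = 15), Cluster 13 had 19.5 ± 18.7 (n = 10) and all other clusters 8.32 CPM or less. *Ncan* was thus shared by astrocytes and OPC at similar levels.

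*Bcan* encodes brevican, the shortest lectican core protein, and lies on the minus strand of chromosome 3 from 87987531 to 88000230. Its order was Cluster 7 at 861 ± 238 CPM (n = 15), Cluster 5 at 615 ± 353 (n = 14) and OPC at 512 ± 148 (n = 14). Neither step exceeded the larger SD, although Cluster 7 was above Cluster 5 in 11 of the 14 mice that had both. By medians this order held in the 9 mice with animal numbers of 10000 or more (727 against 368 CPM) and turned in those with lower numbers (879 CPM in Cluster 7, 1032 CPM in Cluster 5). OPC stood above Cluster 2 (185 ± 92.5 CPM, n = 11) in 11 of 11 mice. Neurons had 120 ± 62.2 CPM (n = 15), and the remaining clusters had 64.1 CPM or less. Of the 7227 *Bcan* UMIs, 43.4% came from Cluster 7, which held 7.81% of all UMIs.

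*Acan* encodes aggrecan, the lectican of perineuronal nets, and lies on the plus strand of chromosome 7 from 79053483 to 79115099. Only 245 of its UMIs were counted in all cells. The mean was highest in OPC at 29.7 ± 17.2 CPM (n = 14), from 53 UMIs, with a range over mice of 0 to 59.0 CPM, and then in neurons at 13 ± 9.37 CPM (n = 15), from 140 UMIs. The step between them did not exceed the larger SD, and OPC were above neurons in 10 of 14 mice. Every other cluster had a mean of 2.51 CPM or less. By count rather than level, 57.1% of the *Acan* UMIs lay in neurons, a cluster with 15.6% of all UMIs. The counts were too low for a test of *Acan* in any of the 4 classes.

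*Vcan* encodes versican, the most widespread lectican outside the nervous system, and lies on the minus strand of chromosome 13 from 89655312 to 89742509. In OPC it had 1692 ± 594 CPM (n = 14, lowest 1031, median 1595, highest 3192), above every other cluster by more than the larger SD. Myeloid cells came next at 322 ± 473 CPM (n = 5), but from 11 UMIs, and without the 4 shallow mice their mean was 12.6 CPM. Fibroblasts had 146 ± 136 CPM (n = 9), immune cells 91.1 ± 123 (n = 10) and Cluster 13 had 73.3 ± 69.9 (n = 10), none of which differed from its neighbour beyond the spread. Cluster 7 had 21.8 ± 25.4 CPM (n = 15) from 77 UMIs, and Cluster 5 had 3 UMIs or fewer in 13 of its 14 mice.

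The 3 membrane-spanning members differed in where they were found. *Cspg4* encodes NG2, the proteoglycan by which OPC and pericytes are stained, and lies on the plus strand of chromosome 9 from 56865033 to 56899870. It was found in pericytes at 532 ± 167 CPM (n = 15) and in OPC at 450 ± 187 CPM (n = 14), which did not differ beyond their spread; pericytes were higher in 9 of 14 mice. The next cluster, microglial Cluster 10, had 38.4 ± 49.8 CPM (n = 14), below OPC in 14 of 14 mice, and fibroblasts had 28.9 ± 26.4 (n = 9). Neither astrocyte cluster used for tests had enough *Cspg4* UMIs for a test, and Cluster 7 had 7.38 ± 7.33 CPM (n = 15). *Cspg4* was therefore a pericyte and OPC transcript in these data.

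*Cspg5* encodes neuroglycan C, a membrane proteoglycan of the brain, and lies on the plus strand of chromosome 9 from 110243783 to 110262576. Its level was 917 ± 453 CPM in OPC (n = 14), above all others by more than the larger SD. This mean pools 5 mice with animal numbers below 10000 (median 1346 CPM, 843 to 1823) and 9 with higher numbers (median 552 CPM, 375 to 1035). Red blood cells followed with 119 ± 158 CPM from 16 UMIs in 4 mice (44.1 CPM without the shallow mouse among them), then Cluster 7 with 104 ± 30.9 (n = 15) and Cluster 5 with 93.5 ± 47.6 (n = 14), with no step beyond the spread among these. Neurons were at 43.2 ± 24.5 CPM (n = 15), lower than Cluster 5 by more than the larger SD.

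*Ptprz1* encodes a receptor tyrosine phosphatase whose ectodomain, also released as phosphacan, carries chondroitin sulfate. It lies on the plus strand of chromosome 6 from 22875502 to 23052916. OPC had 2058 ± 555 CPM (n = 14), Cluster 7 had 1184 ± 168 (n = 15), Cluster 5 had 637 ± 276 (n = 14) and Cluster 2 had 213 ± 106 (n = 11), each below the one before by more than the larger SD. OPC were above Cluster 7 in 13 of 14 mice, and Cluster 7 was above Cluster 5 in 13 of 14 mice. Neurons followed at 151 ± 64.1 CPM (n = 15).

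*Tnr* encodes tenascin-R, the glycoprotein that crosslinks the C-terminal ends of lecticans. The gene lies on the plus strand of chromosome 1 from 159523769 to 159931729, and 2 predicted genes, *Gm37731* and *Gm10530*, overlap it on the same strand. OPC had 4050 ± 1397 CPM (n = 14, lowest 1994, median 3714, highest 6229) and held 68.6% of its UMIs with 3.49% of all UMIs. Neurons were second at 282 ± 129 CPM (n = 15), below OPC in 14 of 14 mice, and oligodendrocyte Cluster 4 followed at 80.2 ± 78.5 (n = 15). Cluster 5 and Cluster 7 had 37.4 ± 35.1 (n = 14) and 27.4 ± 21.2 CPM (n = 15).

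Of the enzymes, *Csgalnact1* encodes the N-acetylgalactosaminyltransferase that adds the first chondroitin-specific sugar, and lies on the minus strand of chromosome 8 from 68356781 to 68735146. Its order was unlike that of any core protein: Cluster 7 had 490 ± 106 CPM (n = 15), endothelial cells 307 ± 97.8 (n = 15), OPC 249 ± 114 (n = 14), Cluster 5 had 165 ± 155 (n = 14; 90.7 without the 4 shallow mice) and Schwann cells 159 ± 112 (n = 5). The step from Cluster 7 to endothelial cells exceeded the larger SD and held in 14 of 15 mice, whereas the later steps did not exceed it.

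*Chst11* encodes a 4-O-sulfotransferase that places sulfate on the chain's N-acetylgalactosamine, and lies on the plus strand of chromosome 10 from 82985498 to 83195900. OPC had 569 ± 199 CPM (n = 14), above all other clusters by more than the larger SD. Myeloid cells (290 ± 88.6 CPM, n = 5), microglial Cluster 10 (267 ± 130, n = 14) and endothelial cells (236 ± 76.6, n = 15) came next without a step beyond the spread. Cluster 7 had 145 ± 68.3 CPM (n = 15), lower than endothelial cells in 14 of 15 mice, and microglial Cluster 6 had 140 ± 42.4 (n = 14). Neurons had 110 ± 49.3 CPM (n = 15), fibroblasts 110 ± 93.5 (n = 9) and Cluster 5 had 96.3 ± 89.3 (n = 14), or 51.2 CPM without the 4 shallow mice.

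**Figure D1:**
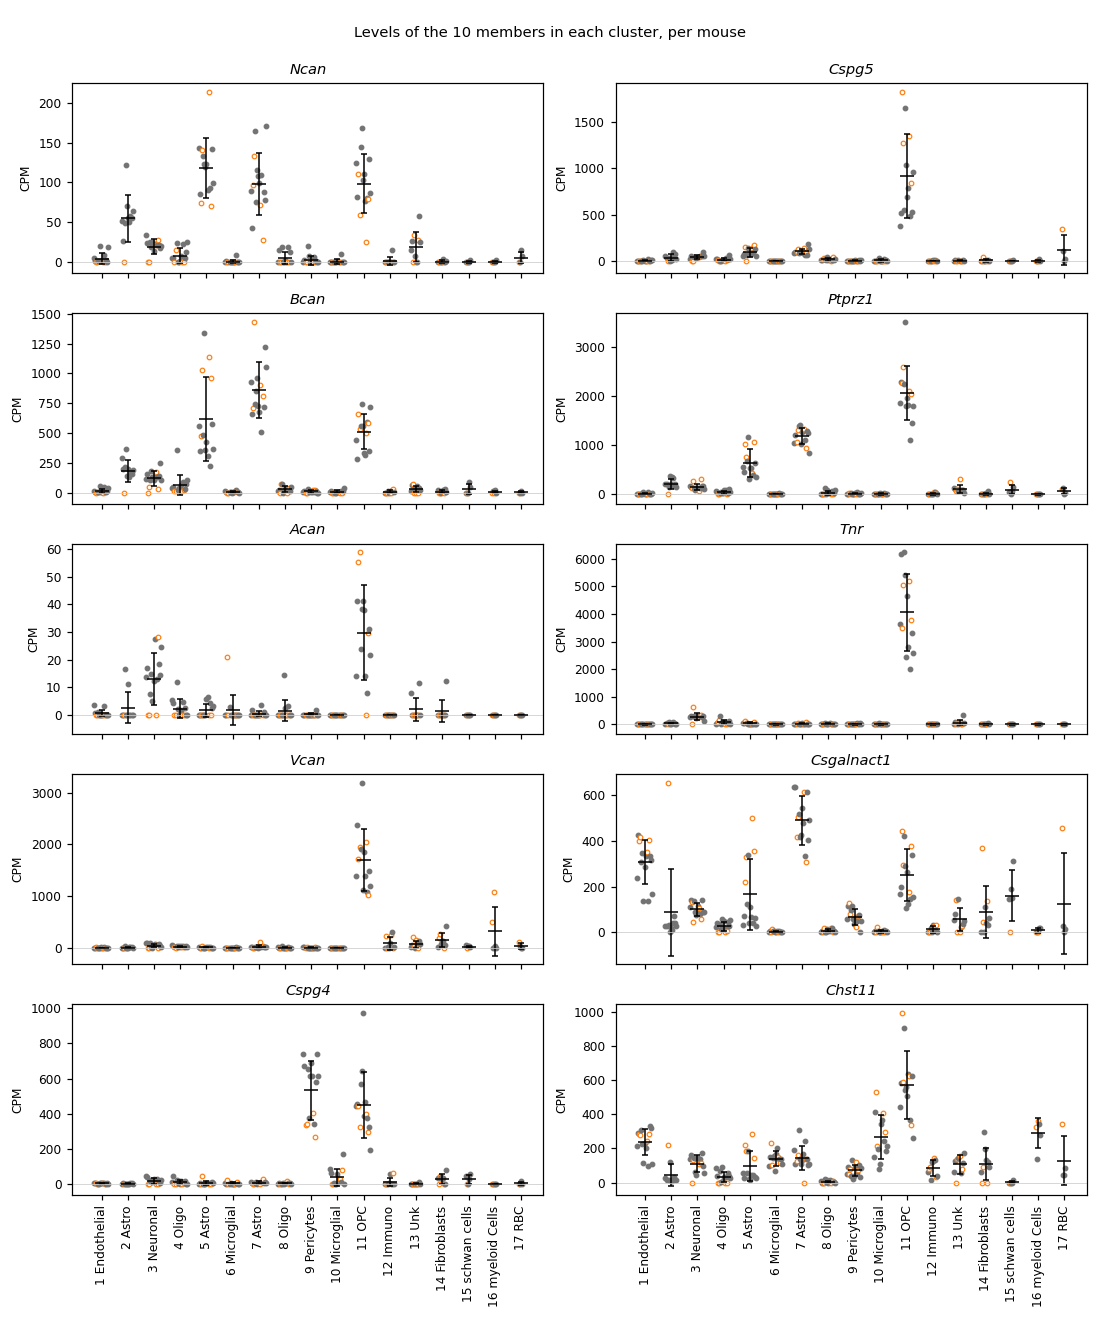
Level of each of the 10 members in each of the 17 deposited clusters, in CPM on a linear axis that differs between panels. Each point is 1 mouse with at least 10 cells of the cluster, open points are the 4 shallow mice, and the bar and whiskers are mean ± SD; OPC stand highest in 6 of the panels.

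Across the 17 clusters the members fell into partly overlapping patterns. As a description only, since all clusters come from the same libraries, the Pearson r of log2(mean CPM + 10) between *Ncan* and *Bcan* was 0.954, between *Ncan* and *Ptprz1* 0.930 and between *Acan* and *Tnr* 0.947. The pair *Bcan* and *Chst11* had r = 0.0816 and the pair *Ncan* and *Cspg4* had r = 0.0789. *Ncan*, *Bcan* and *Ptprz1* had their 3 highest means in the same clusters, Cluster 5, Cluster 7 and OPC, but not in the same order.

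Among all genes with a mean of at least 20 CPM in at least 1 cluster, the 3 with the pattern nearest to *Ncan* were *Dbx2* (r = 0.961), *Slitrk2* (0.955) and *Bcan* itself (0.954). Nearest to *Bcan* were *Asic1* (0.980), *Extl1* (0.972) and *Fut9* (0.966), and among the nearest to *Ptprz1* were *Nrcam* (0.957) and *Asic1* (0.941). Of these, *Asic1* had its highest level in OPC and the others in Cluster 7. For *Acan* the nearest genes were *Gabrb2* (0.976), *Gm20642* (0.972) and *Shisa7* (0.97), and for *Tnr* *Adarb2* (0.977), *Sema5b* (0.966) and *Olfm2* (0.961). For *Cspg5* they were *Lhfpl3* (0.940), *Cacng4* (0.906) and *2900037B21Rik* (0.888), and for *Vcan* *Fndc9* (0.865), *Ugdh* (0.824) and *Kcnq5* (0.790). Of these 12 genes, all but *Ugdh* had their highest level in OPC. The *Vcan* values include a myeloid mean that rests on 11 UMIs, and its part alone was not tested. Without the 4 shallow mice in any cluster the same 3 genes had r = 0.726, 0.749 and 0.813, and the nearest genes were not searched again. For *Cspg4* they were *Pde8b* (0.843), *Susd5* (0.834) and *Kcnj12* (0.832), for *Csgalnact1* *Trib2* (0.926), *Adamts9* (0.921) and *Srgap1* (0.888), and for *Chst11* *Lrrfip1* (0.859), *Midn* (0.854) and *Rps6ka3* (0.778). All of these r are over the same 17 clusters.

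The ratio of Cluster 7 to Cluster 5 differed between members and went with gene span over all genes. Across 8212 genes with at least 20 CPM in either cluster, Spearman's rho between span and the log2 ratio of the mean levels (10 CPM added) was 0.552, as a description across genes, which are not independent replicates. *Csgalnact1*, which spans 378 kb, had a log2 ratio of 1.51, *Ptprz1* (177 kb) 0.88 and *Chst11* (210 kb) 0.54. *Tnr*, with 408 kb the longest of the members, had -0.34, while *Bcan*, with 12.7 kb the shortest, had 0.48. These means pool mice of the lower series of animal numbers (below 10000) and of the higher series. By the median of the mice of each series, *Csgalnact1* was 419 CPM in Cluster 7 against 339 CPM in Cluster 5 in the lower series and 518 against 63.3 CPM in the higher. *Chst11* was lower in Cluster 7 in the lower series, at 134 against 188 CPM, and higher in the other, at 139 against 35.4 CPM. *Bcan* likewise was 879 against 1032 CPM in the lower and 727 against 368 CPM in the higher series. *Tnr* was 22.6 against 46.9 CPM and 26.8 against 21.9 CPM. *Cspg5* was 116 against 143 CPM in the lower and 89.5 against 72.9 CPM in the higher series. The sign of the ratio thus turned between the series for *Chst11*, *Bcan*, *Tnr* and *Cspg5*. The median gene of this set spanned 34.5 kb and had a ratio of 0.12. The part of span in the members' ratios was not tested.

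Within Cluster 5 some members differed between mice by the series of animal numbers. The 5 mice of Cluster 5 with numbers below 10000 are the 4 shallow mice and WT uninjured replicate 1, and the other 9 have higher numbers. *Csgalnact1* was 221 CPM in WT 1 d, 328 CPM in WT 7 d, 500 CPM in cKO 1 d, 355 CPM in cKO 7 d and 339 CPM in uninjured WT, each replicate 1 and of the lower series, from 6 to 22 UMIs. In the 9 mice of the higher series it was 25 to 124 CPM (median 63.3), so the series did not overlap. *Chst11* did not overlap either, at 142 to 285 CPM (median 188) in the lower and 16.8 to 57.2 CPM (median 35.4) in the higher series. *Bcan* overlapped, with 479 to 1341 CPM against 225 to 572 CPM, as did *Ptprz1* with 428 to 1172 CPM against 310 to 687 CPM. *Ncan* did not follow, at 71.1 to 214 CPM against 85.1 to 144 CPM. In Cluster 7 no member separated the series: *Csgalnact1* was 308 to 613 CPM in 6 mice of the lower series and 333 to 638 CPM in 9 of the higher. The share of all genes that separated the series is not given here, so these ranges do not set the members apart from other genes.

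Markers of other cells moved with the series in Cluster 5. All 5 oligodendrocyte markers were found there, led by *Mbp*, and they summed to 1620, 2205, 3568, 3660 and 2421 CPM in WT 1 d, WT 7 d, cKO 1 d, cKO 7 d and uninjured WT of the lower series, against 8587 to 18287 CPM in the higher series. All 5 neuron markers, led by *Nefl*, summed to 73.6, 141, 214, 426 and 463 CPM in the same mice in the same sequence, against 1410 to 2599 CPM. The 6 astrocyte markers overlapped, at 12702 to 18405 CPM and 11174 to 18521 CPM. Depth moved too, with 14013 to 64857 UMIs from 35 to 65 cells per mouse in the lower series and 104830 to 480970 UMIs from 84 to 260 cells in the higher. The median mitochondrial share per cell was 3.58% to 10.6% in the lower and 8.34% to 15.4% in the higher series. The part of depth, of the series and of RNA from other cells in the *Csgalnact1*, *Chst11* and *Bcan* values was not tested.

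**Figure D2:**
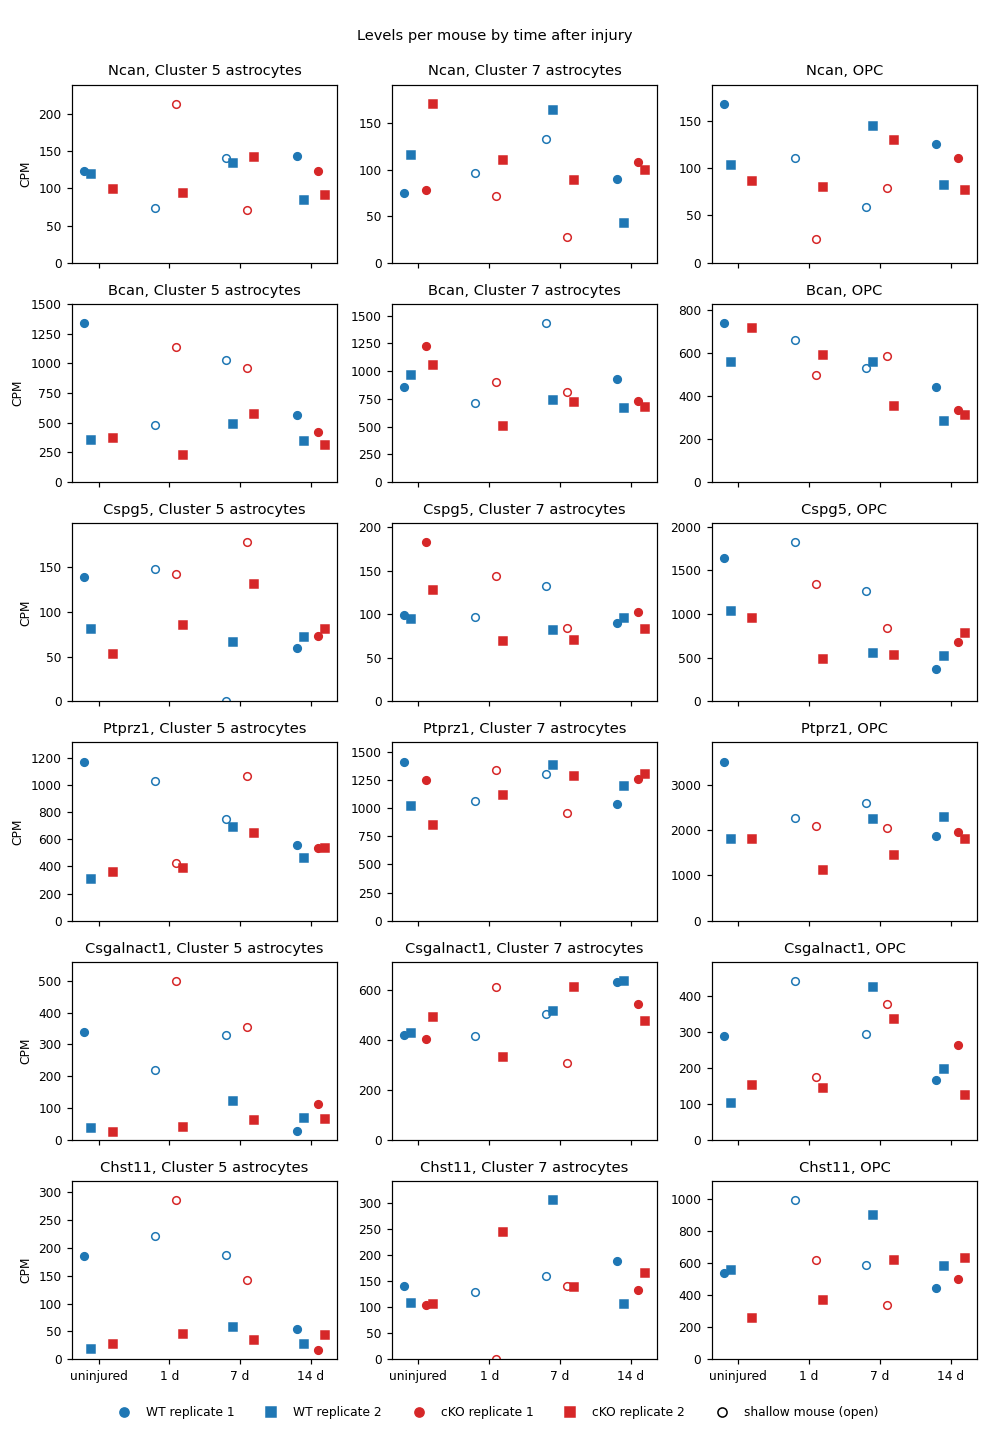
Level of 6 members per mouse in Cluster 5 astrocytes, Cluster 7 astrocytes and OPC by time after injury, in CPM on axes that start at 0. Colors are genotypes, shapes are replicate numbers and open symbols are the 4 shallow mice; in Cluster 5 the 5 highest *Csgalnact1* and *Chst11* values belong to replicate 1, while *Ptprz1* in Cluster 7 lies between 850 and 1412 CPM in all 15 mice.

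Differences were tested with edgeR's quasi-likelihood test on UMIs summed per mouse, with p-values adjusted by Benjamini-Hochberg over all genes that passed the filter on low counts, and a gene is called when its adjusted p is under 0.05. The numbers of members that passed the filter were 7 in Cluster 5, 8 in Cluster 7, 9 in OPC and 3 in fibroblasts. No member was called in any of the 18 comparisons: of 129 member tests, 0 were called, 6 had an unadjusted p under 0.05 (beside 1.84% to 7.78% of all genes, by comparison), and DESeq2 also called 0, with 4 at an unadjusted p under 0.05. A p that misses the threshold does not show that levels were equal. The standard errors given here were calculated from each log2 difference and its edgeR test statistic. Differences of several standard errors could still go uncalled, as *Vcan* in fibroblasts did between 7 d and 1 d at 3.00 ± 0.93. With the replicate number, which equals the deposited batch in all 16 mice, added to the edgeR model, 0 members were called and 7 had an unadjusted p under 0.05. With the series of animal numbers added, an alternative chosen after seeing the data, 1 was called (*Vcan* in fibroblasts) and 9 had an unadjusted p under 0.05. Over the 3 times after injury, the calls over all genes in Cluster 5 and Cluster 7 were 2 and 33 as reported. They were 14 and 88 with the replicate number added, and 97 and 175 with the series added. Contrasts that share the uninjured mice, or in fibroblasts the 1 d mice, are not independent of each other.

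In Cluster 5 astrocytes 7929 genes were tested in 14 mice, with *Acan*, *Vcan* and *Cspg4* too low to test. At 1 d against uninjured 0 of 7 members were called, against 0.0252% of all genes (2 genes), and the members' log2 differences ran from -1.17 to 1.27 with a median of -0.19, beside a median of -0.43 over all genes. At 7 d and at 14 d 0 members and 0% of all genes were called, with members between -0.46 and 0.86 (median -0.06) at 7 d and between -0.70 and 0.58 (median -0.40) at 14 d, beside medians over all genes of -0.14 and 0.04. None of the 7 members had an unadjusted p under 0.05 at any time, and DESeq2 called 0. The standard errors of these differences were 0.58 to 0.88 on the log2 scale.

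Between genotypes after injury, 0 of 7 members and 0% of all genes were called in Cluster 5, with members from -1.05 to 0.55 (median 0.03, all genes 0.30). The genotype by injury term, which asks whether the difference after injury differed between cKO and WT, gave 0 of 7 members and 0% of all genes, with values from -1.71 to 2.08 and standard errors of 1.07 to 1.37. DESeq2 called 0 members in both comparisons, and 0 members had an unadjusted p under 0.05.

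Cluster 7 astrocytes, with 7966 genes tested in 15 mice, had the lowest common coefficient of variation between mice of the 4 classes, 0.250 against 0.515 in Cluster 5, 0.426 in OPC and 0.464 in fibroblasts. *Acan* and *Cspg4* were too low to test. At 1 d 0 of 8 members were called against 0.188% of all genes (15 genes), at 7 d 0 of 8 against 0.0377% (3 genes) and at 14 d 0 of 8 against 0.188% (15 genes); DESeq2 called 0 members at each time. The members' medians were -0.37, 0.04 and 0.0054, beside -0.30, 0.0049 and 0.07 over all genes. The value at the low end at 1 d was *Vcan* at -2.54 ± 2.84, with 0 UMIs in the only WT mouse at 1 d; its mean CPM was 39.5 at 1 d beside 18.4 uninjured, and it ran from -5.24 to -0.05 over the alternatives. The other members ran from -0.85 to 0.99 at 1 d, and all 8 ran from -0.61 to 1.47 at 7 d and from -0.48 to 0.83 at 14 d, so the fitted values had both signs at each time.

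Across these 3 times 2 member differences in Cluster 7 had an unadjusted p under 0.05. *Bcan* in normalized CPM, which are scaled by edgeR's TMM factors between mice, was 979 and 1152 CPM in the uninjured WT mice and 1237 and 1226 CPM in the uninjured cKO mice, against 614 CPM in the single WT mouse at 1 d and 786 and 564 CPM in the cKO mice at 1 d. All 3 mice at 1 d were below all 4 uninjured mice on this scale, but before TMM scaling they overlapped, at 509 to 902 CPM and 856 to 1226 CPM. The fitted log2 difference was -0.85 ± 0.33 (SE), with an adjusted p of 0.672 by edgeR's quasi-likelihood test after Benjamini-Hochberg, and it was -0.98 to -0.63 over 24 alternatives, in which the adjusted p ran from 0.361 to 1.00. At 7 d the *Bcan* difference was -0.35 ± 0.27 and at 14 d -0.42 ± 0.26, so the sign was the same at every time without reaching the threshold.

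*Tnr* in Cluster 7 at 7 d rested on few counts. Its normalized values were 48.0 and 39.2 CPM in WT and 72.7 and 34.0 CPM in cKO at 7 d, from 2, 10, 3 and 30 UMIs, against 11.7 and 0 CPM in uninjured WT and 13.2 and 31.1 CPM in uninjured cKO, from 3, 0, 1 and 5 UMIs. The 0 UMIs of WT uninjured replicate 2 allow up to 21.7 CPM in that mouse before TMM scaling. All 4 mice at 7 d were above all 4 uninjured mice, the closest pair being 34.0 and 31.1 CPM. The log2 difference was 1.47 ± 0.64, with an adjusted p of 0.547 by edgeR's quasi-likelihood test after Benjamini-Hochberg, and ran from 1.18 to 3.47 over 26 alternatives.

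The genotypes after injury in Cluster 7 gave 0 of 8 members against 0.0126% of all genes (1 gene), and the genotype by injury term 0 of 8 against 0.0251% (2 genes), with 0 members at an unadjusted p under 0.05 and 0 called by DESeq2 in either. *Vcan* had 0 to 24 UMIs per mouse in this class and 0 in the only WT mouse at 1 d, which allow up to 96.6 CPM. Its fitted cKO against WT difference of 2.20 ± 1.64 is therefore no size. The others were *Ncan* 0.07 ± 0.39, *Bcan* -0.18 ± 0.25, *Cspg5* -0.12 ± 0.37, *Ptprz1* 0.11 ± 0.25, *Tnr* 0.12 ± 0.64, *Csgalnact1* -0.03 ± 0.27 and *Chst11* 0.0052 ± 0.34, each on the log2 scale. *Vcan* ran from 0.05 to 3.88 over 22 alternatives. Over the 23 alternatives *Chst11* ran from -2.88 to 0.33 and *Tnr* from -1.83 to 0.42, and the other sign was taken by *Chst11* in 14 of them, *Ncan* in 9, *Tnr* and *Csgalnact1* in 4 each and *Cspg5* and *Ptprz1* in 2 each.

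In OPC 5417 genes were tested in 14 mice, and only *Acan* was too low. At 1 d, 7 d and 14 d 0 of 9 members and 0% of all genes were called, and the same held for cKO against WT after injury and for the genotype by injury term. DESeq2 called 0 members in each of these 5 comparisons, and 2 member differences had an unadjusted p under 0.05 by edgeR. The members' medians were -0.20, -0.09 and 0.05 at the 3 times, beside -0.14, 0.14 and 0.21 over all genes. In cKO against WT after injury all 9 members had a negative log2 difference, from -0.39 to -0.08 with a median of -0.20, beside a median of 0.23 over all genes; over the 21 alternatives 6 of the 9 took the other sign in at least 1 (*Ncan*, *Bcan*, *Vcan*, *Cspg4*, *Cspg5* and *Tnr*). Their standard errors were 0.36 to 0.50, and 0 of the 9 had an unadjusted p under 0.05.

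At 14 d *Bcan* in OPC had an unadjusted p under 0.05. Its normalized level was 947 and 652 CPM in uninjured WT and 868 CPM in the only uninjured cKO mouse with enough OPC, against 535 and 346 CPM in WT and 386 and 384 CPM in cKO at 14 d. All 4 mice at 14 d were below all 3 uninjured mice, with 535 and 652 CPM the closest. The log2 difference was -1.03 ± 0.44, with an adjusted p of 0.822 by edgeR's quasi-likelihood test after Benjamini-Hochberg, and ran from -1.20 to -0.83 over 23 alternatives. *Cspg5* was 451 to 960 normalized CPM in the 4 mice at 14 d, all below the 1158 to 2099 CPM of the 3 uninjured mice. Its log2 difference was -1.0 ± 0.50, with an unadjusted p of 0.0577 and an adjusted p of 0.822 by the same test. The 4 mice at 14 d and 2 of the 3 uninjured mice are of the higher series of animal numbers.

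For *Cspg4* in OPC the genotype by injury term was 1.89 ± 0.87 on the log2 scale, with an adjusted p of 0.929 by edgeR's quasi-likelihood test after Benjamini-Hochberg. The uninjured WT mice had 820 and 1134 normalized CPM, the single uninjured cKO mouse 237 CPM from 9 UMIs, the injured WT mice 355 to 696 CPM and the injured cKO mice 354 to 571 CPM. The term thus rested on 3 uninjured mice, 1 of them cKO, while the injured genotypes overlapped. With the conditions written in the cell names it took the other sign, at -0.42.

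Fibroblasts reached 10 cells in 9 mice, 1 of them uninjured, so time was compared with 1 d and genotype was a term of the model; 4113 genes were tested. Only *Vcan*, *Csgalnact1* and *Chst11* passed the filter. At 7 d against 1 d 0 of 3 members were called against 0.17% of all genes (7 genes), at 14 d against 1 d 0 of 3 against 0.0973% (4 genes), and in cKO against WT 0 of 3 against 0%. DESeq2 called 0 members in each, and *Vcan* had an unadjusted p under 0.05 in 2 of the 3 comparisons.

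*Vcan* in fibroblasts was 184 CPM in WT 1 d replicate 1 from 1 UMI, 0 CPM in cKO 1 d replicate 1, where 0 UMIs allow up to 409 CPM, and 59.5 CPM in cKO 1 d replicate 2 from 4 UMIs. At 7 d it was 277 CPM in WT replicate 1 from 6 UMIs and 428 CPM in cKO replicate 2 from 426 UMIs. At 14 d it was 13.1 CPM in WT replicate 1, 125 CPM in cKO replicate 1 and 140 CPM in cKO replicate 2, from 2, 36 and 31 UMIs, and the uninjured WT mouse had 84.8 CPM from 2 UMIs. Both mice at 7 d had higher values than the other 7, but the limit of 409 CPM for cKO 1 d replicate 1 lies above the 277 CPM of WT 7 d replicate 1, and 426 of the 508 *Vcan* UMIs came from cKO 7 d replicate 2. The same mouse held all 12 *Acan* UMIs of the class. The 5 fibroblast markers, led by *Dcn*, summed to 27933 and 31724 CPM in these 2 mice at 7 d. They summed to 26809, 6276 and 1681 CPM at 1 d, to 3030, 10536 and 7884 CPM at 14 d and to 16366 CPM in the uninjured mouse, in the sequence used for *Vcan*. The marker sum was thus also highest at 7 d, and its part in the *Vcan* difference was not tested.

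The log2 difference of *Vcan* between 7 d and 1 d was 3.00 ± 0.93, with an adjusted p of 0.215 by edgeR's quasi-likelihood test after Benjamini-Hochberg, and between cKO and WT it was 1.59 ± 0.76, with an adjusted p of 0.999 by the same test. Leaving out each mouse in turn, the first ran from 2.63 to 4.03 and the second from 0.50 to 2.28, and neither was called. Without the 4 shallow mice, which leaves 6 mice with 1 residual degree of freedom and a single mouse at 1 d and at 7 d, *Vcan* was called in both comparisons, as were 433 of all genes between time points and 409 between genotypes; the log2 differences were 2.75 ± 0.69 (adjusted p 0.00737) and 3.07 ± 0.78 (adjusted p 0.00564). In such a fit a time point and the mouse that stands for it cannot be told apart. *Csgalnact1* was called there between genotypes as well, but both WT mice left had 0 of its UMIs, so its fitted value is no size. With the series of animal numbers in the model of all 9 mice, *Vcan* was called between 7 d and 1 d, at 3.07 ± 0.82 with an adjusted p of 0.0126, as were 143 of all genes between time points, and it was not called between genotypes. Over the 18 alternatives the adjusted p of the difference between 7 d and 1 d ran from 0.00737 to 0.780 and that between genotypes from 0.00564 to 1.00, all by edgeR's quasi-likelihood test or DESeq2 after Benjamini-Hochberg.

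**Figure D3:**
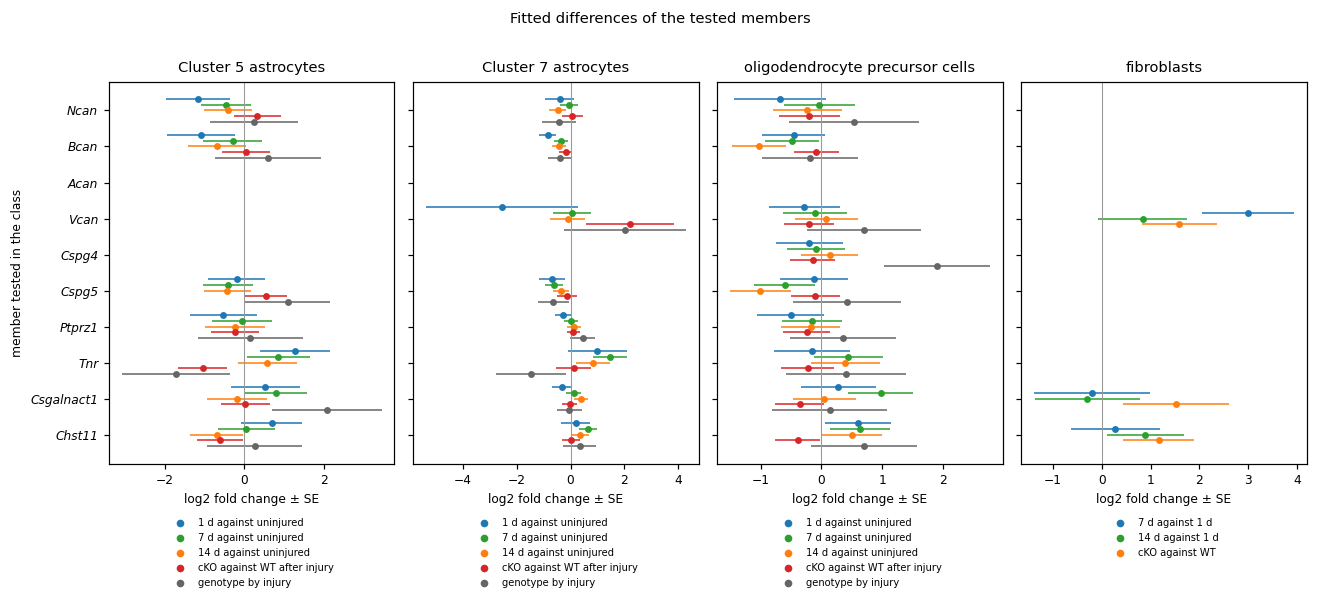
Fitted log2 differences of the members that passed the filter in each class, with whiskers of ± 1 SE, for every comparison tested. Points right of 0 are higher after injury, in cKO or, for the genotype by injury term, in the injury difference of cKO; in fibroblasts the time points are compared with 1 d, and no point passed the threshold.

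Around the 10 members, 62 further genes of the pathway were read in 5 lists: core proteins and partners (14 genes), linkage and chain synthesis (11), sulfation and epimerisation (11), breakdown (16) and receptors and ligands (10). Of these, 31 passed the filter in Cluster 5, 26 in Cluster 7, 24 in OPC and 27 in fibroblasts. Over all comparisons 1 listed gene was called, *Cd44*, which rose in Cluster 7 at 1 d, 1 of 26 listed genes tested there against 0.188% of all genes; no listed gene was called lower, and in each of the other 17 comparisons 0 listed genes were called. *Cd44* encodes a receptor for hyaluronan, the polymer to which lecticans bind.

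*Cd44* in Cluster 7 was 167 normalized CPM in the WT mouse at 1 d and 126 and 183 CPM in the cKO mice, against 11.7 and 26.0 CPM in uninjured WT and 26.3 and 31.1 CPM in uninjured cKO. All 3 mice at 1 d were above all 4 uninjured mice. The WT mouse and the cKO mouse with 126 CPM are shallow mice, with 31040 and 27728 UMIs in Cluster 7. Their *Cd44* values, like those of the 4 uninjured mice, rest on few UMIs. Most *Cd44* UMIs at 1 d came from cKO 1 d replicate 2, which had 290974 UMIs in Cluster 7. The log2 difference was 2.91 ± 0.62, with an adjusted p of 0.0173 by edgeR's quasi-likelihood test after Benjamini-Hochberg. Its size held over 24 alternatives, 2.59 to 3.31, but its call did not: the adjusted p was 0.0577 with DESeq2, 0.694 with WT mice alone and 0.245 without cKO 1 d replicate 2, where the difference was 2.68, within a range over the alternatives of 0.000487 to 0.694. At 7 d it was 48.0 and 62.8 CPM in WT and 96.9 and 47.6 CPM in cKO, all above the uninjured mice, and was not called. Values at 14 d were 128 and 41.3 CPM in WT and 29.7 and 39.7 CPM in cKO. In Cluster 5 at 1 d *Cd44* was 261 normalized CPM in WT and 215 and 281 CPM in cKO. Uninjured mice had 15.2 and 59.7 CPM in WT and 102 CPM in cKO there, and *Cd44* was not called. Of all clusters, myeloid cells had the highest mean of *Cd44*, at 607 CPM. The part of RNA from other cells in the astrocyte values of *Cd44* was not tested.

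The highest listed genes of each class give the setting in which the members were read. In OPC the chain-starting xylosyltransferase *Xylt1* had 1536 ± 507 CPM, the chain polymerase subunit *Chsy3* 158 ± 99.3 and the uronyl 2-sulfotransferase *Ust* 574 ± 291 (n = 14), and OPC were the highest of the 17 clusters for all 3. *Papss1*, which makes the sulfate donor, had 140 ± 69.7 CPM in OPC, and *Arsb*, a lysosomal sulfatase of the chain, 246 ± 91.5. OPC had the highest mean of the 17 clusters for 6 of the 10 members (*Acan*, *Vcan*, *Cspg5*, *Ptprz1*, *Tnr* and *Chst11*), with or without the 4 shallow mice. The share of all genes with their highest mean in OPC is not given here. The count therefore does not set the members apart from other genes. Of the 62 listed genes OPC were highest for 7 and fibroblasts for 13, and without the shallow mice for 7 and 15, with 5 and 10 genes in both. Of the 22 enzymes of chain synthesis, sulfation and epimerisation, OPC were highest for 4 and fibroblasts for 7, and those that kept this place without the shallow mice were 3 in OPC (*Xylt1*, *Chsy3* and *Ust*) and 4 in fibroblasts (*Csgalnact2*, *Chpf*, *Chst15* and *Dse*). *Cntn1*, a contactin that binds the ectodomain of *Ptprz1*'s product, had 1461 ± 406 CPM in OPC, 1212 ± 181 in Cluster 7 (n = 15) and 625 ± 203 in Cluster 5 (n = 14).

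In Cluster 7 *Xylt1* had 348 ± 74.3 CPM, the phosphatase *Ptprd*, of the family of chondroitin sulfate receptors, 641 ± 105 and the proteoglycan-cleaving protease *Adamts9* 148 ± 50.5 (n = 15). In Cluster 5 *Xylt1* had 91.3 ± 69.8 CPM and *Cd44* 156 ± 150 (n = 14), or 71.2 CPM for *Cd44* without the 4 shallow mice. Fibroblasts had a different set: the small proteoglycans *Dcn* (6075 ± 5199 CPM) and *Bgn* (932 ± 556), the *Ptprz1* ligand *Ptn* (1207 ± 1321), *Ust* (317 ± 141), the hyaluronan-degrading *Cemip* (333 ± 464) and the protease *Adamts5* (256 ± 151; n = 9 for each). Without the shallow mice *Dcn* was 3865 CPM and *Cemip* 202 CPM (n = 6). *Dcn* is also 1 of the 5 fibroblast markers, so its level there is no separate finding. The highest listed core proteins of fibroblasts, *Dcn* and *Bgn*, are small leucine-rich proteoglycans, a family apart from the lecticans.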

How the data were processed

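Spinal cord cells of 16 mice were counted by single-cell RNA sequencing with unique molecular identifiers. The authors ran Cell Ranger (no version given) on mm10, R 4.1.2 and Seurat, kept cells with under 25% mitochondrial UMIs, and made the clusters used here. The deposited matrix holds raw UMI counts without normalization, and 41193 of its 55487 genes had a count. The deposited table of cells holds the number of UMI counts per cell and the percent of mitochondrial UMIs, both by the authors. Positions are from GENCODE vM21 by symbol, which can differ from the authors' annotation.

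Counts were summed per mouse and class with at least 10 cells and fitted in R 4.3.3 with edgeR 4.0.16 (TMM factors, filterByExpr, quasi-likelihood test, Benjamini-Hochberg over all genes tested, threshold 0.05). Group means were fitted over all conditions, and time point plus genotype in fibroblasts. The comparisons were each time against uninjured (mean of both genotypes), cKO against WT over the 3 injured times, and the difference of the injury effect between genotypes; in fibroblasts 7 d and 14 d against 1 d, and cKO against WT. A condition with 1 mouse, such as WT at 1 d, is assumed to vary like the others. Tables and figures were made with pandas 2.3.3, numpy 2.4.6 and matplotlib 3.10.9 under Python 3.11.15. The fits were also run on simulated counts, with less spread between mice than in any of the 4 classes and with large set differences. That run checks the code and does not show what size of difference could be found in these data.

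The members and lists were chosen with earlier results of these data known. Named genes are the 10 members in every comparison, listed genes called in a comparison, up to 3 genes of highest level per list and class, up to 3 genes nearest to each member by Pearson's r of log2(mean CPM + 10) among genes with at least 20 CPM in a cluster, and *Ryk*. *Gm37731* and *Gm10530* are named because they overlap *Tnr*. The enzymes listed as highest in OPC or fibroblasts were chosen after their values were seen.

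Alternatives were DESeq2 1.42.0, RLE factors, no filter on low counts, at least 30 cells per mouse, the replicate number as a block, time point plus genotype (in fibroblasts either alone), the conditions of the cell names, WT mice alone, the 4 shallow mice left out, and each mouse left out in turn. Chosen after seeing the data were the fits without cells of shared barcodes, the fits with the series of animal numbers, and the alternatives for levels. The deposited batch equals the replicate number in 16 of 16 mice, so the numbers pair mice of different conditions. Deviations of the mice from their condition means had correlations between conditions of 0.0267 to 0.503 (median 0.0961, 15 pairs) in Cluster 5, -0.0534 to 0.118 (median 0.0179, 21 pairs) in Cluster 7 and -0.400 to 0.412 (median 0.0346, 15 pairs) in OPC. Free RNA and doublets were not removed. Limits for a count of 0 are 3 counts and cover counting error only.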

Additional observations from a re-analysis of the deposited data

How the results depend on the processing

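Of 236 alternative counts of called members, 233 equalled the reported 0 (edgeR, adjusted p under 0.05). Among them were all 137 counts from fits with a mouse left out, where the same fit gives a count for each result of its class. The 3 counts that did not equal 0 were in fibroblasts. Without the 4 shallow mice 1 member was called between time points and 2 in cKO against WT, in a fit of 6 mice with 1 residual degree of freedom. With the series of animal numbers added, 1 was called between time points; the cause was not tested. The *Cspg4* genotype by injury term in OPC changed sign to -0.42 with the conditions of the cell names; the cause was not tested. The 153 alternative levels of the members moved by less than 1 SD of the reported mean, an SD that includes the shallow mice. These levels are means over part of the same mice or cells, so a move within 1 SD is a weak criterion. Without the 4 shallow mice *Csgalnact1* in Cluster 5 went from 165 to 90.7 CPM, *Chst11* there from 96.3 to 51.2 CPM and *Vcan* in myeloid cells from 322 to 12.6 CPM. Of 129 member differences, 67 took the other sign in at least 1 alternative.

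Fits of OPC and fibroblasts with at least 30 cells per mouse were not run, because too few mice were left. Without the 4 shallow mice no WT mouse was left at 1 d, so in Cluster 5, Cluster 7 and OPC the 1 d and genotype contrasts of group means could not be formed. Time point plus genotype without these mice was not run. The genotype by injury term has no counterpart under time point plus genotype. Counts were too low for a test of *Acan* in all 4 classes, *Cspg4* in both astrocyte clusters used for tests and *Vcan* in Cluster 5. In fibroblasts they were too low for all members but *Vcan*, *Csgalnact1* and *Chst11*. The parts of depth and of a low level in this were not tested.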
